A study of Zea mays with 4 samples.

Results

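The sites described here are the DNA affinity purification sequencing (DAP-seq) peaks of 4 maize transcription factors that lie in the central 20% of chromosome length. For each of the 10 chromosomes, length was taken up to the last peak end in any of the 4 lists, and a peak was kept when its summit lay from 40% up to 60% of that length. This stretch, called the central window, held 88248 of the 398506 peaks in all lists (22.1%), on 421 Mb of a chromosome total of 2106 Mb. Of these, 17641 were C3H23 peaks, 34921 CPP2 peaks, 11727 OBF4 peaks and 23959 THX20 peaks. The remaining chromosome sequence, called the rest below, held 57586, 128841, 38851 and 80836 peaks of the same factors in the same order. The rule uses position alone, so strength, grouping and overlap played no part in which peaks were kept.

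Each library tested 1 protein, tagged with Halo and made in wheat germ extract, against purified leaf DNA of B73, an inbred maize line, taken at 14 DAG. The proteins tested were THX20 (Zm00001d017420), OBF4 (Zm00001d012553), CPP2 (Zm00001d031008) and C3H23 (Zm00001d008323), and the series was designed around transcription factors acting downstream of ZmNAC128 and ZmNAC130. Each factor had 1 library, so no difference has a replicate check, no p-value is given, and the intervals printed cover nothing beyond counting error of peaks. Because neighbouring peaks are not independent, these intervals are narrower than the true uncertainty. No control library was used here, the read depth is unknown, and purified DNA shows where a protein can bind, not where it sits in endosperm.

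The middle of a maize chromosome differs from its ends: retrotransposons fill most of it, genes are sparse, cytosine methylation is heavy and recombination is low. Genes lie closer together towards the chromosome ends. The centromere need not fall at the midpoint, and centromere positions were not used here. C3H23 is named as a CCCH zinc finger protein, a family whose members bind RNA or DNA. CPP2 is named for the CPP proteins, which bind DNA through cysteine-rich motifs. OBF4 is named for the ocs-element binding factors, basic leucine zipper proteins that bind DNA as dimers, and THX20 belongs by name to the trihelix proteins, known in plants for binding GT elements.

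All 4 factors had more peaks per Mb in the central window than in the rest, and CPP2 showed the smallest excess. For C3H23 the density was 41.9 peaks per Mb in the central window (exact Poisson 95% interval 41.3 to 42.5) and 34.2 per Mb in the rest (33.9 to 34.5), a ratio of 1.23 (1.205 to 1.25). OBF4 had 27.8 per Mb in the central window and 23.1 per Mb in the rest, a ratio of 1.21 (1.18 to 1.23). THX20 had 56.9 per Mb in the central window and 48.0 per Mb in the rest, a ratio of 1.19 (1.17 to 1.203). The zinc finger, bZIP and trihelix factors thus stood close together in this ratio. CPP2 had 82.9 per Mb in the central window and 76.5 per Mb in the rest, a ratio of 1.08 (1.07 to 1.10), and its interval did not meet those of the other 3 factors.

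The density was not highest at the midpoint. Within the central window, summed over chromosomes, it was higher on the side of the chromosome start (40 to 50% of length) than on the side of the end (50 to 60%) for C3H23, OBF4 and THX20. C3H23 had 44.2 peaks per Mb from 40 to 50% and 39.5 from 50 to 60%, a ratio of 1.12 (1.09 to 1.15). OBF4 had 29.3 and 26.4 per Mb in these parts, a ratio of 1.11 (1.07 to 1.15), and THX20 had 60.3 and 53.5, a ratio of 1.13 (1.10 to 1.16). For CPP2, which had 83.3 and 82.5 per Mb, the ratio was 1.009 (0.988 to 1.03), an interval that includes 1. Not every chromosome had this order. On chromosome 5, successive slices of 5% of length from 40 to 60% held 464, 531, 544 and 564 C3H23 peaks. The window just before the centre, from 20 to 40% of length, was about as dense as the central window itself. The ratio of the central window to it was 0.981 (0.964 to 0.999) for THX20, 0.994 (0.974 to 1.015) for C3H23, 0.993 (0.978 to 1.007) for CPP2 and 0.998 (0.973 to 1.02) for OBF4. Against the window after the centre, from 60 to 80% of length, the ratio was 1.24 (1.22 to 1.26) for THX20, 1.28 (1.25 to 1.31) for C3H23, 1.09 (1.08 to 1.11) for CPP2 and 1.24 (1.21 to 1.28) for OBF4. In the outermost stretches, from 0 to 20% and from 80 to 100% of length, C3H23 had 32.7 and 29.1 peaks per Mb. Summed over chromosomes, the excess over the rest was therefore not an excess over the 20 to 40% window, but single chromosomes departed from this in both directions. The interval of the C3H23 ratio to that window lay above 1 on 3 chromosomes and below 1 on 6. Chromosome 5 had 2103 C3H23 peaks in the central window and 1422 from 20 to 40%, a ratio of 1.48 (1.38 to 1.58), and the ratio was 1.24 (1.17 to 1.32) on chromosome 2 and 1.17 (1.11 to 1.24) on chromosome 1. Chromosome 6 was at the other end, with 1237 and 1667 C3H23 peaks, a ratio of 0.742 (0.689 to 0.799).

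**Figure D1:**
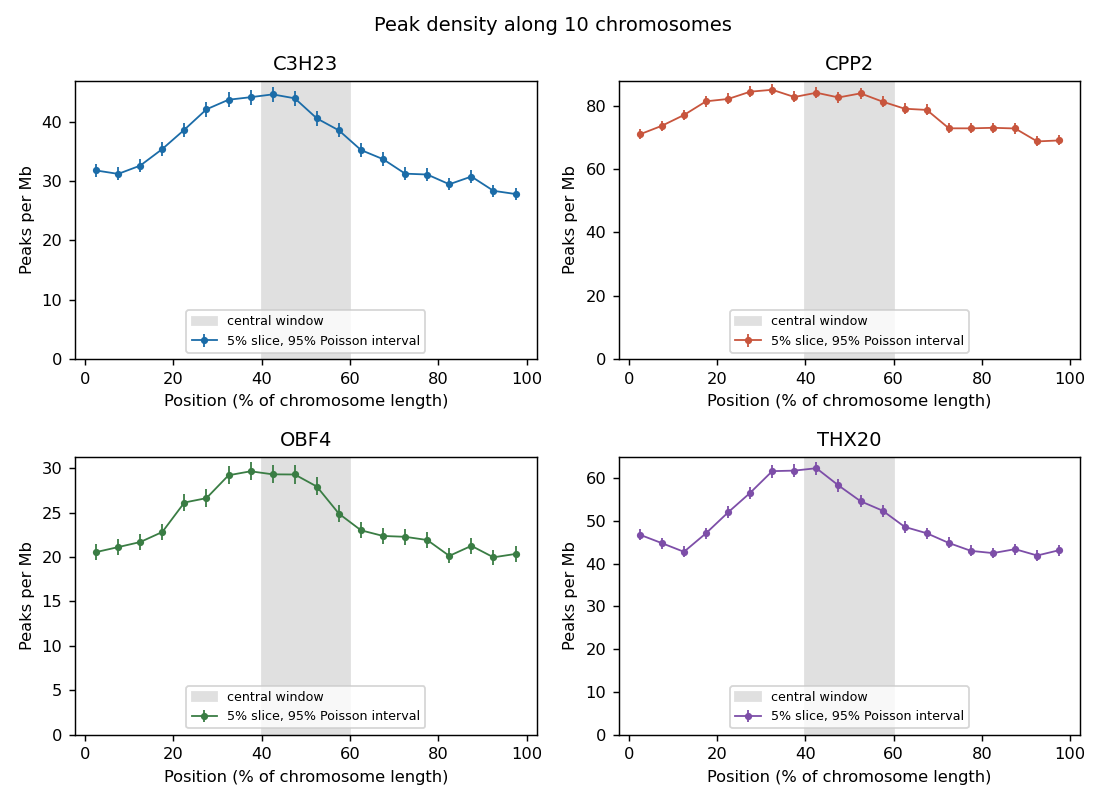
Peaks per Mb (y axis, from 0) in 5% slices of chromosome length (x axis), summed over 10 chromosomes for each factor, with exact Poisson 95% intervals; the grey band is the central window. C3H23 runs from 44.6 peaks per Mb in the 40 to 45% slice to 38.5 in the 55 to 60% slice, and CPP2 is nearly flat across the band.

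The boundaries of the window did not mark a step. From 40 to 42% of length, just inside the start-side boundary, C3H23 had 44.5 peaks per Mb, and from 38 to 40%, just outside, it had 43.4. CPP2 had 83.0 per Mb just inside and 82.1 just outside, OBF4 29.6 and 30.6, and THX20 61.8 and 62.3. At the end-side boundary the densities inside (58 to 60%) and outside (60 to 62%) were 37.1 and 37.7 for C3H23, 80.8 and 79.4 for CPP2, 24.998 and 23.5 for OBF4, and 51.1 and 51.1 for THX20. The median signal of C3H23 was 39 just inside and 37.8 just outside the start-side boundary, and 37 on both sides of the end-side one. For THX20 it was 32.5 just inside and 32 just outside at the start side, and 31.4 and 31.6 at the end side.

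The central excess was carried by some chromosomes more than by others. Chromosomes 1, 2 and 5 had the 3 highest ratios of central to remaining density for all 4 factors, while chromosomes 6 and 10 had ratios near 1 for C3H23 and THX20. For C3H23 the ratio was 1.35 on chromosome 1, 1.49 on chromosome 2 and 1.47 on chromosome 5. It was 1.205 on chromosome 3, 1.19 on chromosome 4, 1.13 on chromosome 7, 1.07 on chromosome 8 and 1.16 on chromosome 9. On chromosome 6 it was 0.996 (0.935 to 1.06) and on chromosome 10 it was 1 (0.936 to 1.07). C3H23 thus had no detectable central excess on those chromosomes at this number of peaks. Its densest central window was that of chromosome 2, with 48.5 peaks per Mb, and its sparsest that of chromosome 6, with 35.5 per Mb.

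For THX20 the ratio was 1.37 on each of chromosomes 1, 2 and 5. It was 1.01 (0.956 to 1.06) on chromosome 6, 1.02 (0.965 to 1.07) on chromosome 8 and 0.976 (0.921 to 1.03) on chromosome 10. Its central density was highest on chromosome 2, with 64.3 peaks per Mb, and lowest on chromosome 6, with 47.8. The bZIP factor OBF4 had ratios from 1.04 on chromosome 10 (0.959 to 1.13) to 1.41 on chromosome 2, and on 9 of 10 chromosomes the interval lay above 1. Its central density was highest on chromosome 2, with 31.3 per Mb, and lowest on chromosome 10, with 24.3. For CPP2 the ratio ran from 1.01 on chromosome 6 to 1.17 on chromosome 2, and the interval lay above 1 on 6 of 10 chromosomes. Its central density was highest on chromosome 5, with 86.4 per Mb, and lowest on chromosome 6, with 77.8.

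**Figure D2:**
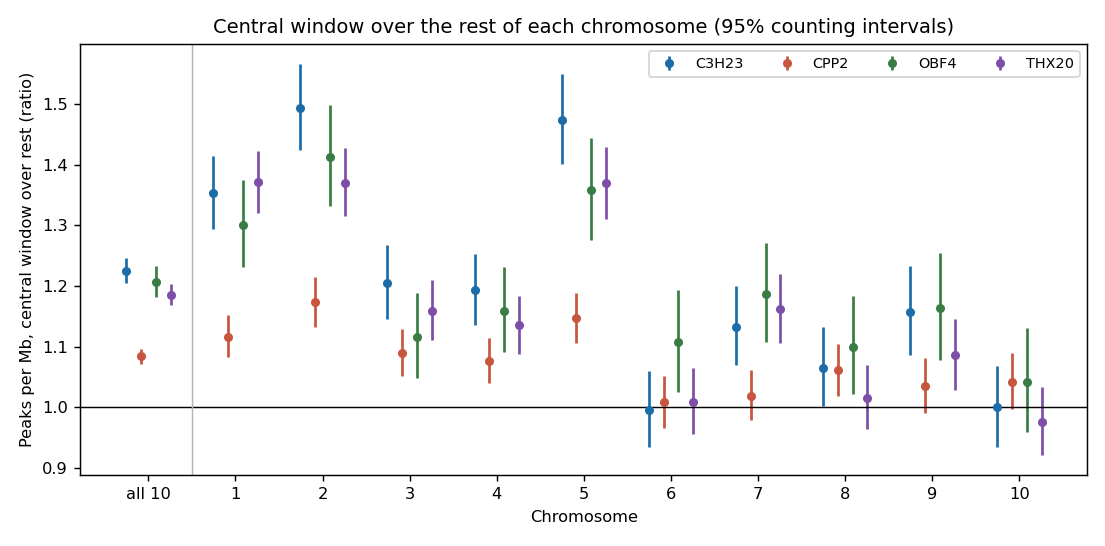
Ratio of peaks per Mb in the central window to peaks per Mb in the rest (y axis) for all 10 chromosomes together and for each chromosome (x axis), with exact 95% counting intervals; colours are factors and the line marks a ratio of 1. On chromosomes 1, 2 and 5 all 4 factors lie above 1, and on chromosome 10 all 4 intervals include 1.

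Chromosomes differed more in their central windows than in the rest taken as a whole. The densest central window exceeded the sparsest by 1.35 times for THX20, 1.36 times for C3H23, 1.11 times for CPP2 and 1.29 times for OBF4. In the rest of the chromosomes these ratios were 1.15, 1.18, 1.09 and 1.15 in the same order of factors. The rest pools more sequence per chromosome, which gives it less counting error and averages over local differences. The values therefore do not show that the centre varies more than other windows of its size. In the 20 to 40% window, chromosome 7 had 1785 C3H23 peaks and chromosome 5, the longer of the pair, had 1422.

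To place the central window against other windows of the same size, the 20% stretch of each chromosome with the most peaks was found by moving a window in steps of 1% of length. This densest window began before the 40% mark in 32 of 40 combinations of factor and chromosome. On chromosome 2 the OBF4 window was the central window itself, and the other factors' windows began at 41% (C3H23), 42% (CPP2) and 38% (THX20). On chromosome 5 they began at 41% for C3H23, CPP2 and THX20 and at 42% for OBF4. Chromosomes 2 and 5 therefore had their densest stretch almost exactly in the centre. On chromosome 6 the windows began at 13% for C3H23, 21% for OBF4, 17% for THX20 and 18% for CPP2. On chromosome 10 they began at 19% for C3H23, 24% for OBF4, 21% for THX20 and 16% for CPP2. In 9 of the 40 combinations the densest window shared no sequence with the central window: C3H23 on chromosomes 6, 8 and 10, CPP2 on chromosomes 3, 6, 8 and 10, and THX20 on chromosomes 6 and 8. The gap was widest for C3H23 on chromosome 6, where the central density of 35.5 peaks per Mb was 0.680 times the 52.3 per Mb of the densest window. These windows were chosen on the peak counts themselves and are given as a description.

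**Figure D3:**
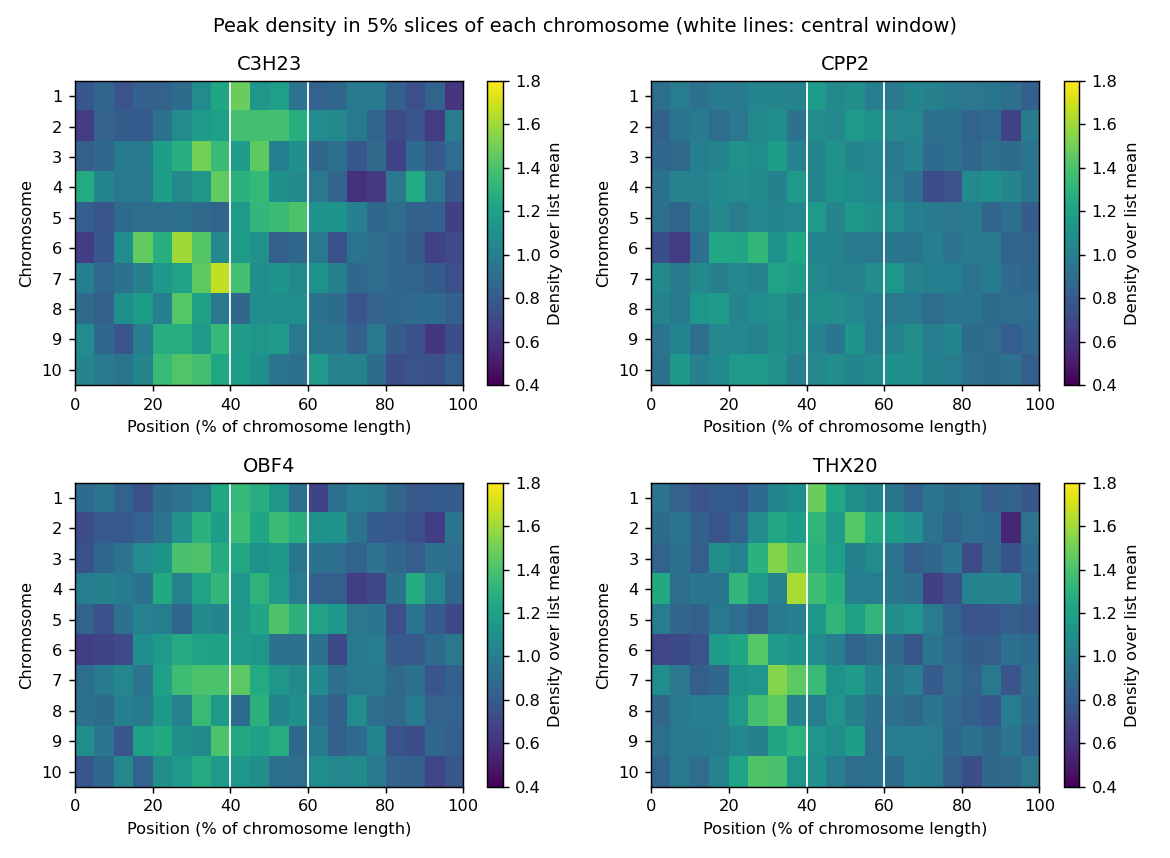
Peak density in 5% slices of each chromosome (x axis, percent of length; y axis, chromosome), divided by the mean density of the factor's list (colour scale); white lines bound the central window. The brightest C3H23 slice lies from 35 to 40% of chromosome 7, at 1.67 times the list mean, just outside the central window.

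The strength of the central peaks was described with the authors' signal for each peak, a value of unstated scale that ranks peaks within a list only. Central peaks were slightly stronger than the others for C3H23 and OBF4, slightly weaker for CPP2, and equal in median for THX20. The median signal of C3H23 was 37.9 in the central window (binomial 95% interval 37 to 38) and 36 in the rest (35.8 to 36), a ratio of 1.05. For OBF4 it was 31 in the central window (31 to 31.7) and 30.3 in the rest (30 to 30.7), a ratio of 1.02. The OBF4 median was higher in the central window on 10 of 10 chromosomes, but the intervals of both parts were apart on only 2 of them, and by −log10 p the median was higher on 7 and lower on 3. The C3H23 median signal was higher on 7 of 10, with intervals apart on 5. For CPP2 the median was 40 in the central window (39.2 to 40) and 41 in the rest (41 to 41.2), a ratio of 0.976, and it was lower in the central window on 8 of 10 chromosomes, with intervals apart on 3. For THX20 it was 32 in both. The 20 to 40% window had medians close to the central ones: 37.9 for C3H23, 31.2 for OBF4, 39.6 for CPP2 and 32 for THX20. The differences from the rest were thus not particular to the central window.

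Over all chromosomes together, the central share changed with strength. Each list was divided by signal into 5 classes of about equal size, and the share of each class in the central window was counted. Of the weakest C3H23 class, 21.5% of peaks were central (Wilson 95% interval 20.8 to 22.1%), and of the strongest, 25.9% (25.2 to 26.6%). In OBF4 the share was 21.8% (20.9 to 22.6%) in the weakest class and 24.9% (24.1 to 25.8%) in the strongest. CPP2 ran the other way, with 22.0% (21.6 to 22.5%) in the weakest class and 20.2% (19.7 to 20.6%) in the strongest. The strongest CPP2 class was thus at the share that its part of the length alone gives. THX20 rose to 23.5% (22.9 to 24.1%) in the middle class and had 21.7% (21.2 to 22.3%) in the strongest. The direction was not the same on every chromosome. The density ratio of central window to rest was higher in the strongest class than in the weakest on 8 of 10 chromosomes for C3H23, 7 for OBF4, 3 for THX20 and 2 for CPP2.

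**Figure D4:**
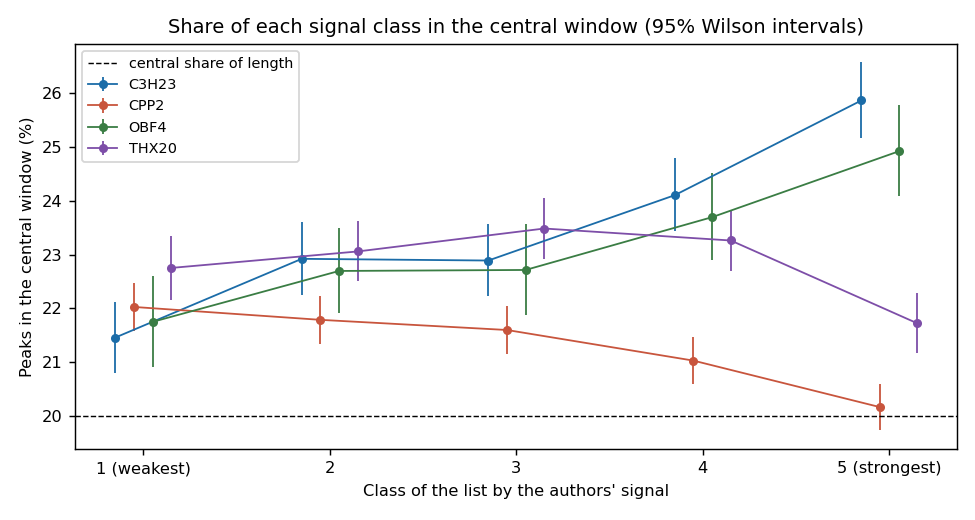
Percent of peaks that lie in the central window (y axis, which does not start at 0) for 5 classes of each list by the authors' signal (x axis, weakest to strongest), with Wilson 95% intervals; the dashed line is the central share of length, 20%. C3H23 and OBF4 climb to 25.9% and 24.9% in the strongest class, while CPP2 declines to 20.2%.

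Expressed as density, the strongest C3H23 class was 1.39 times as dense in the central window as in the rest (1.34 to 1.45). The weakest was 1.09 times as dense (1.05 to 1.14). For OBF4 these ratios were 1.33 (1.27 to 1.39) and 1.11 (1.06 to 1.17), and for CPP2 1.01 (0.984 to 1.04) and 1.13 (1.10 to 1.16). For C3H23 the ratio of the strongest class reached 1.69 on chromosome 1, 1.88 on chromosome 2 and 1.86 on chromosome 5, against 1.11 on chromosome 6 and 1.03 on chromosome 10. The weakest C3H23 class had 1.10 on chromosome 1, 1.28 on chromosome 2 and 1.14 on chromosome 5. On chromosomes 8 and 9 the C3H23 classes hardly differed, with 1.11 for the strongest and 1.12 for the weakest on chromosome 8 and 1.11 and 1.10 on chromosome 9. Ranked by p-value in place of signal, the very top of the C3H23 list did not continue this rise with strength. Of its 1000 peaks with the best p-value, 21.5% (19.1 to 24.2%) were central, and of its best 100, 17 were (10.9 to 25.5%). The best 1000 CPP2 peaks had 16.4% (14.2 to 18.8%) in the central window, below the 20% of length. For THX20, 12 of the best 100 peaks were central (6.999 to 19.8%), and for OBF4, 24 of 100 (16.7 to 33.2%). Of the best 1000, 19.1% (16.8 to 21.7%) were central for THX20 and 23.9% (21.4 to 26.6%) for OBF4.

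The 3 strongest central peaks of each factor had no summit of another factor within 200 bp. Most central peaks of any strength had none either. The share with such a summit went from 8.15% of central OBF4 peaks to 21.7% of central C3H23 peaks, with CPP2 at 8.81% and THX20 at 11.4%. The lack of overlap therefore does not set the strongest sites apart. Positions are those of the deposited lists, counted from 1, and the genome build is not given in the sources used here, so no gene is assigned to them. The strongest central THX20 peak lay on chromosome 10 from 86757655 to 86757855 (signal 1547.3), the 5th of its list (ranks here leave out peaks on contigs) and the only central THX20 peak at the cap of the p-value. The next was 6 kb before it on the same chromosome, from 86751400 to 86751600 (signal 782.1), and the 3rd lay on chromosome 6 from 100170631 to 100170831 (719.8). For OBF4 the first lay at 101448037 to 101448237 of chromosome 7 (signal 907.5), the 2nd of its list. It was followed by a peak at 94425287 to 94425487 of chromosome 8 (627.9) and one at 91067807 to 91068007 of chromosome 7 (582.3), the 7th and 9th of the list. For CPP2 the first lay at 120719603 to 120719803 of chromosome 4 (signal 537.8) and ranked 9th. The others lay at 89936225 to 89936425 of chromosome 10 (417.7) and at 80208644 to 80208844 of chromosome 8 (414), and ranked 27th and 30th. The strongest central C3H23 peaks stood as a pair 12 kb apart on chromosome 4, from 105787595 to 105787795 (signal 450) and from 105775390 to 105775590 (411.4), and the 3rd was on chromosome 4 from 145654880 to 145655080 (371). They ranked 13th, 15th and 25th in their list.

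Grouping was measured as the share of peaks with another peak of the same factor within 1 kb. C3H23 peaks were grouped more often in the central window: 31.7% (31.1 to 32.4%) had such a neighbour, against 27.6% (27.2 to 28.0%) in the rest, and the central share was higher on 10 of 10 chromosomes. For THX20 the shares were 42.3% (41.7 to 42.9%) in the central window and 41.4% (41.1 to 41.8%) in the rest. For CPP2 they were 41.0% (40.5 to 41.5%) and 42.1% (41.9 to 42.4%), and for OBF4 12.4% (11.9 to 13.1%) and 12.7% (12.3 to 13.0%), each with the central window first. OBF4 peaks thus stood mostly alone in both parts. The order of the parts depended on the setting for all factors but C3H23. Within 2 kb the CPP2 share was 54.7% (54.1 to 55.2%) in the central window, against 52.3% (52.0 to 52.5%) in the rest. In the stronger 50% by signal the share was 24.1% against 26.4% for CPP2 and 28.0% against 29.7% for THX20, with the central window first.

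Denser peaks have closer neighbours, so each share was also set against the value that even spreading at the same density gives by formula. All shares exceeded it. Over all chromosomes together, the fold over this value was smaller in the central window for every factor. It was 3.95 times in the central window against 4.18 times in the rest for C3H23 and 2.30 against 2.81 for OBF4. For THX20 it was 3.93 against 4.53 and for CPP2 2.69 against 2.97. The fold divides by a value that rises with density. On chromosome 10 it was higher in the central window for C3H23 (4.37 against 4.01), CPP2 (2.90 against 2.86) and THX20 (4.48 against 4.45). For OBF4 it was lower there (2.10 against 2.62). Chromosome 6 had the same order, with C3H23 (4.52 against 4.49), CPP2 (3.01 against 2.94) and THX20 (4.69 against 4.56) higher and OBF4 lower (2.28 against 3.08). On chromosome 8 the fold was higher in the central window for C3H23 (4.13 against 4.10) and OBF4 (2.70 against 2.68) and lower for CPP2 and THX20. On the remaining chromosomes it was lower for every factor. Counted separately, grouped C3H23 peaks were 1.41 times as dense in the central window as in the rest (1.37 to 1.45) and single ones 1.16 times (1.13 to 1.18). For CPP2 the order was turned, with 1.06 times (1.04 to 1.07) for grouped and 1.11 times (1.09 to 1.12) for single peaks. Grouped C3H23 peaks in the central window also had the higher median signal, 50.1, against 34 for single ones there, and in the rest these medians were 47.4 and 33.

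Runs of peaks, formed by joining summits at most 1 kb apart, were mostly short. Of the central C3H23 runs, 14.6% held 2 peaks, 2.26% held 3 and 0.610% held 4 or more, against 12.8%, 1.78% and 0.355% in the rest. The longest central C3H23 run held 6 peaks and lay on chromosome 5 from 129123682 to 129127243, and the next held 5 peaks on chromosome 3 from 107705624 to 107707419. The longest CPP2 run held 8 peaks on chromosome 2 from 141326550 to 141329425, and another held 6 on chromosome 10 from 78215658 to 78218149. The longest THX20 run held 8 peaks on chromosome 10 from 61626173 to 61630746, followed by 6 peaks on chromosome 7 from 101328219 to 101330021. For OBF4, 5 peaks stood on chromosome 4 from 119392940 to 119394166 and 4 on chromosome 2 from 119954451 to 119955603. Outside the central window the longest runs held 7 peaks for C3H23 and CPP2, 6 for THX20 and 4 for OBF4, so for 3 of the 4 factors the longest run of all was central.

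Neighbouring summits of a factor within 1 kb repeat certain distances. For THX20 and CPP2, some of these distances differed in central share from all pairs of the factor, and others did not. Of all such THX20 pairs, 23.1% (22.6 to 23.7%) were central. At 153 bp, the commonest THX20 distance, 106 pairs were central and 248 in the rest, a central share of 29.9% (25.4 to 34.9%). The 182 bp distance was found 81 times in the central window and 222 times in the rest. Its central share of 26.7% (22.1 to 32.0%) has an interval that includes the share of all THX20 pairs. Of the CPP2 pairs, 20.8% (20.4 to 21.2%) were central, but at 54 bp only 96 pairs were central and 488 in the rest, a share of 16.4% (13.7 to 19.7%). At 155 bp, 87 CPP2 pairs were central and 428 in the rest (16.9%, 13.9 to 20.4%). At 125 bp there were 105 central CPP2 pairs and 393 in the rest (21.1%, 17.7 to 24.9%), close to the share of all CPP2 pairs. The 125 bp distance was the commonest CPP2 distance in the central window. The median distance of CPP2 pairs within 1 kb was 170 bp in the central window and 156 bp in the rest. The distances were picked as the most frequent ones, so these shares are a description.

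Overlap between factors was counted where summits lay at most 200 bp apart, and it was set against the number that even spreading of both lists over the same part would give. In the full lists the pairs with C3H23 overlapped about 3 to 4 times as often as that in the central window, and OBF4 with CPP2 less often. Of the central C3H23 peaks, 1967 (11.2%) overlapped a CPP2 peak, 3.41 times even spreading (3.26 to 3.56), against 6179 (10.7%) and 3.55 times (3.47 to 3.64) in the rest. In the stronger 50% of both lists by signal this fold was lower, 2.03 times in the central window (310 peaks, 1.81 to 2.27), against 2.56 times (2.42 to 2.72) in the rest. With THX20, 1453 central C3H23 peaks overlapped (8.24%), 3.65 times even spreading (3.47 to 3.85), against 4528 (7.86%) and 4.13 times (4.01 to 4.25) in the rest. Of the central OBF4 peaks, 587 (5.01%) overlapped C3H23, 3.01 times even spreading (2.77 to 3.26), against 1937 (4.99%) and 3.66 times (3.502 to 3.83) in the rest. The share of peaks that overlapped was thus close in both parts, while the fold was lower in the denser central window.

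Among the pairs without C3H23, 188 central OBF4 peaks (1.60%) overlapped CPP2, 0.490 times even spreading (0.423 to 0.566), against 629 (1.62%) and 0.536 times (0.495 to 0.580) in the rest. THX20 and CPP2 shared 1038 central THX20 peaks (4.33%), 1.33 times even spreading (1.25 to 1.41), against 3687 (4.56%) and 1.51 times (1.46 to 1.56) in the rest. In the stronger 50% of both lists by signal this overlap fell below even spreading, to 0.710 times in the central window (137 peaks, 0.596 to 0.840), against 0.949 times (593 peaks, 0.875 to 1.03) in the rest. OBF4 and THX20 shared 243 central OBF4 peaks (2.07%), 0.919 times even spreading (0.807 to 1.04), against 792 (2.04%) and 1.07 times (0.997 to 1.15) in the rest. The central interval of OBF4 with THX20 thus includes 1 in the full lists, but in the stronger 50% the fold was 0.754 times (52 peaks, 0.563 to 0.989), against 1.06 times (196 peaks, 0.915 to 1.22) in the rest, and with summits within 100 bp it was 1.10 times in the central window.

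**Figure D5:**
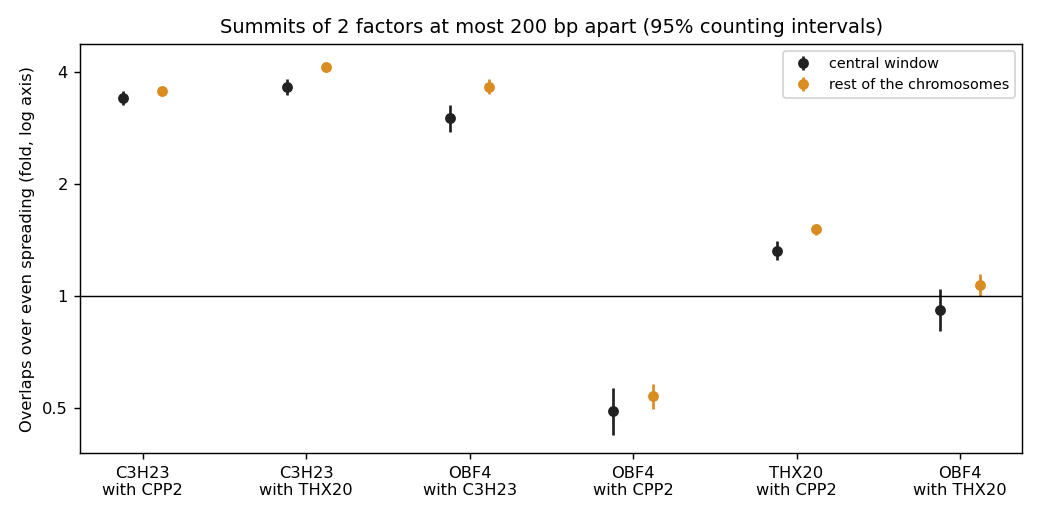
Overlaps (summits at most 200 bp apart) divided by the number under even spreading of both lists (y axis, log scale) for 6 pairs of factors (x axis), in the central window (black) and in the rest (orange), with exact Poisson 95% intervals. All 6 central points lie below those of the rest, and the central and rest intervals do not meet for C3H23 with THX20, OBF4 with C3H23 and THX20 with CPP2.

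The fold of the central window divided by that of the rest was below 1 in all 6 pairs. It was 0.821 (0.747 to 0.900) for OBF4 with C3H23, 0.859 (0.741 to 0.993) for OBF4 with THX20, 0.877 (0.818 to 0.940) for THX20 with CPP2 and 0.885 (0.834 to 0.939) for C3H23 with THX20. For C3H23 with CPP2 it was 0.960 (0.912 to 1.01) and for OBF4 with CPP2 0.915 (0.773 to 1.08), and both intervals include 1. By chromosome, the central fold was lower than that of the rest on 9 of 10 chromosomes for THX20 with CPP2 and for OBF4 with THX20. It was lower on 8 for OBF4 with C3H23, on 7 for C3H23 with THX20 and for OBF4 with CPP2, and on 6 for C3H23 with CPP2. Central density varied between chromosomes and bins, which even spreading does not follow, and the part of this in the folds was not tested.

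Counted against all other factors together, 21.7% of central C3H23 peaks (21.1 to 22.4%) lay within 200 bp of another list's summit, against 21.1% (20.7 to 21.4%) in the rest. For CPP2 this share was 8.81% (8.51 to 9.11%) in the central window and 7.92% (7.77 to 8.07%) in the rest. It was 11.4% (10.98 to 11.8%) and 11.03% (10.8 to 11.2%) for THX20 and 8.15% (7.67 to 8.66%) and 8.14% (7.87 to 8.41%) for OBF4, with the central window first. Shared central CPP2 peaks were weaker than single ones, with a median signal of 33 against 40.6, as they were in the rest, with 33.6 against 42. In central C3H23 peaks the medians were 35.3 for shared and 38 for single peaks, while in the rest both were 36.

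Joining peaks whose summits chained at 200 bp or less gave 74149 central regions, of which 93.6% held 1 factor, 6.09% held 2 and 0.330% held 3. In the rest these shares were 94.0%, 5.72% and 0.299%. Regions of all 4 factors numbered 7 in the central window and 11 in the rest, so 38.9% of them were central (20.3 to 61.4%), an interval that includes the 22.4% of all regions that were central. The central ones were on chromosome 1 from 128635909 to 128636265 and from 137779793 to 137780532, on chromosome 3 from 103000121 to 103000668, on chromosome 4 from 114880109 to 114880454 and from 140996885 to 140997202, on chromosome 7 from 106132822 to 106133327 and on chromosome 8 from 78660681 to 78661087. None joined high-ranking peaks of all 4 factors, and the lowest-ranking of the 4 stood at 72.2 to 96.3% of its list. In the chromosome 8 region the C3H23 and THX20 peaks ranked within the best 2.80% and 3.45% of their lists, but CPP2 stood at 89.0%. In the second region on chromosome 1 the best THX20 peak stood at 2.89% and OBF4 at 96.3%. On chromosome 4, the tightest region had its 4 summits within 117 bp of each other.

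In bins of 1 Mb, 413 lay wholly in the central window. A central bin held a median of 41 C3H23 peaks (range 5 to 76), against 33 (3 to 88) in the rest. The medians were 84 (8 to 120) and 76 (6 to 135) for CPP2, 28 (2 to 49) and 22 (0 to 50) for OBF4, and 56 (4 to 97) and 46 (2 to 115) for THX20, with the central bins first. No central bin was empty for any factor, and in the rest 2 bins were empty for OBF4. A bin was called dense when it held more peaks than the 90th percentile of all 2101 bins. For C3H23, 8.85% of all bins were dense, and 80 central bins were (19.4%, 15.8 to 23.5%). For OBF4, 8.61% of all bins were dense and 75 central ones (18.2%, 14.7 to 22.2%), and for THX20 9.52% of all and 73 central ones (17.7%, 14.3 to 21.6%). CPP2 had 8.95% of all bins and 53 central ones (12.8%, 9.95 to 16.4%). Chromosome 2 supplied the most central dense bins for C3H23, OBF4 and THX20, with 21, 16 and 18 of its 48 central bins, and chromosome 8 had 1 for C3H23, 3 for OBF4 and none for CPP2 and THX20 among 35.

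Sparse bins, below the 10th percentile, were uncommon in the central window. They made up 9.95% of all bins for C3H23, 8.76% for OBF4, 9.38% for THX20 and 9.57% for CPP2. Among central bins there were 9 (2.18%, 1.15 to 4.09%) for C3H23, 18 (4.36%, 2.77 to 6.78%) for CPP2, and 10 (2.42%, 1.32 to 4.40%) for OBF4 and likewise for THX20. The lower and upper quartiles were 33 and 49 peaks in central bins and 27 and 40 in the rest for C3H23. For THX20 they were 48 and 66 against 39 and 55, and for OBF4 23 and 32 against 18 and 27. For CPP2 they were 75 and 91 against 67 and 85, so only CPP2 had quartiles closer together in central bins. Relative to their mean, counts varied less from bin to bin in the central window than in the rest, which pools windows of different density. The variance over the mean was 3.09 there and 3.46 in the rest for C3H23, 1.898 and 2.185 for OBF4, 3.32 and 3.84 for THX20, and 2.09 and 2.62 for CPP2, so every list remained more uneven than the value of 1 that counting error alone gives.

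The fullest central bins differed between factors. C3H23 had 76 peaks on chromosome 2 from 121000001 to 122000000, 75 on chromosome 1 from 129000001 to 130000000 and 74 on chromosome 5 from 112000001 to 113000000. CPP2 had 120 on chromosome 1 from 132000001 to 133000000, 116 on chromosome 2 from 130000001 to 131000000 and 114 on chromosome 4 from 145000001 to 146000000. The last of these held 35 C3H23 peaks, below the central median of that factor. OBF4 had 49 peaks on chromosome 7 from 74000001 to 75000000, 49 on chromosome 9 from 82000001 to 83000000 and 47 on chromosome 5 from 116000001 to 117000000. THX20 had 97 on chromosome 2 from 126000001 to 127000000, 97 on chromosome 4 from 111000001 to 112000000 and 94 on chromosome 5 from 111000001 to 112000000. No bin was among the fullest 3 of more than 1 factor. All 4 factors were dense together in 8 of 413 central bins, which lay on chromosomes 1, 2, 4 and 5, and in 10 of 1688 bins of the rest. The central bins thus had the larger share. The bin on chromosome 4 from 111000001 to 112000000 was one of them, with 73 C3H23, 106 CPP2, 42 OBF4 and 97 THX20 peaks.

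The emptiest central bins, by contrast, coincided. The bin on chromosome 9 from 75000001 to 76000000 held the fewest peaks of every factor, with 5 C3H23, 8 CPP2, 2 OBF4 and 4 THX20 peaks. The bin on chromosome 4 from 109000001 to 110000000 was among the 3 emptiest for every factor, with 18, 23, 11 and 8 peaks in the same order, and 1 Mb separated it from the dense bin just named. The other members of these sets were bins on chromosome 4 from 139000001 to 140000000 for C3H23 (16 peaks), chromosome 6 from 102000001 to 103000000 for CPP2 (36), chromosome 9 from 92000001 to 93000000 for OBF4 (9) and, for THX20 (26), chromosome 4 from 142000001 to 143000000. The OBF4 bin on chromosome 9 held 87 CPP2 peaks, above the central median, so it was sparse for the bZIP factor and not for CPP2.

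Stretches without a peak of any factor were also measured. The longest in the central window ran on chromosome 9 from 74991704 to 75920174, 928471 bp, and was the 2nd longest on all chromosomes. It filled most of the emptiest bin. The next ones ran on chromosome 6 from 102265878 to 102774285 (508408 bp) and on chromosome 5 from 123946367 to 124313767 (367401 bp). Stretches of at least 50000 bp were less frequent in the central window, with 30.1 per 100 Mb against 44.6 per 100 Mb in the rest. Those of at least 100000 bp numbered 23 in the central window, 5.46 per 100 Mb, and 86 in the rest, 5.10 per 100 Mb. Those of at least 200000 bp numbered 8 in the central window, 1.899 per 100 Mb, and 18 in the rest, 1.07 per 100 Mb. The lower frequency in the central window thus held from 50000 bp and not from 100000 bp, and the longest stretches are too few for a comparison.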

How the data were processed

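DAP-seq peak lists of 4 factors, 1 library each, were used as deposited, with groups taken from the sample titles. The submitters' processing notes name Trimmomatic 0.39 for trimming and Bowtie2 2.4.1 for alignment. Peak caller, control and build: not given in the sources used here. The deposited file names point to removal of blacklisted regions. They also carry factor names that differ from the sample titles. The deposited assignment of lists to samples was followed, so the identity of each list rests on the titles and was not tested. All peaks have a width of 201 bp and a summit at an offset of 100 bp. The authors deposited a signal per peak of unstated scale, a score, which was not used for any result, −log10 p-values, used for ranking (ties by signal), and −log10 q-values, not used. Members and comparisons were chosen with earlier results of these data known.

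Densities have exact Poisson intervals, their ratios exact conditional intervals, shares Wilson intervals and medians binomial intervals, all at 95%. Even spreading takes peaks as independent at the mean density of the part. Sites were named by rule: per factor the 3 strongest central peaks, the 3 fullest and 3 emptiest central bins, the 2 longest runs (ties by strongest peak) and the densest and sparsest chromosome, with all regions of 4 factors and the 3 longest stretches without peaks. Densest windows, pair distances, and signal classes, medians and the ratio to the 20 to 40% window by chromosome were added later. No genome was used here, so no sequence or gene is given. Calculations used Python 3.11.15, numpy 2.4.6, pandas 2.3.3, scipy 1.17.1 and matplotlib 3.10.9, and were tested on simulated data.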

Additional observations from a re-analysis of the deposited data

Results flagged for a closer look

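The median signal in the central window over that in the rest ran in opposite directions between factors. It was 1.05 for C3H23 and 1.02 for OBF4 against 0.976 for CPP2. With 1 library per factor this difference was not tested, and the 20 to 40% window had medians close to the central ones. Unplaced contigs held 4144 peaks over all lists. These have no position along a chromosome and entered no comparison, and control samples for them were not analysed here.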

How the results depend on the processing

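No paired analysis was possible because there was only 1 library per factor, with no replicate to leave out. Chromosomes were left out in turn instead. Of 56 values under other settings, 30 stayed within the reported interval. Without 1 chromosome, the central density ratio ran from 1.19 to 1.25 for C3H23, 1.07 to 1.09 for CPP2, 1.18 to 1.22 for OBF4 and 1.16 to 1.202 for THX20. The median signal ratio ran from 1.04 to 1.06, 0.971 to 0.976, 1.013 to 1.03 and 0.994 to 1 in the same order. The overlap fold ran from 3.36 to 3.51 (C3H23 with CPP2), 3.59 to 3.73 (C3H23 with THX20), 2.94 to 3.05 (OBF4 with C3H23), 0.472 to 0.505 (OBF4 with CPP2), 1.28 to 1.35 (THX20 with CPP2) and 0.900 to 0.943 (OBF4 with THX20). In the stronger 50% by signal, the density ratio was 1.31 for C3H23, 1.27 for OBF4 and 1.05 for CPP2, and the overlap fold 2.03 for C3H23 with CPP2, 4.04 for C3H23 with THX20, 0.378 for OBF4 with CPP2 and 0.754 for OBF4 with THX20. The overlap of THX20 with CPP2 reversed there, to 0.710. The share with a neighbour within 1 kb became 24.1% for CPP2, 10.3% for OBF4 and 28.0% for THX20, and the share of dense central bins 9.44% for CPP2 and 13.8% for OBF4. Counting peaks within 1 kb as 1 group gave a C3H23 density ratio of 1.19, and a window of 45 to 55% a THX20 ratio of 1.15. With summits within 100 bp the fold was 3.77 for OBF4 with C3H23, 1.49 for THX20 with CPP2 and 1.10 for OBF4 with THX20. By construction a neighbour distance of 500 bp lowered the grouped share to 25.5% (C3H23), 36.5% (CPP2), 9.51% (OBF4) and 38.3% (THX20), and 2 kb raised it to 38.7%, 54.7%, 20.1% and 48.0%. Shorter lists follow from the stricter setting; for the remaining moves the cause was not tested. Unknown read depth limits every count.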

Other observations

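Peak numbers of different factors rose together across central bins of 1 Mb, but less closely than elsewhere for 5 of 6 pairs. The Spearman correlation over 413 central bins was 0.306 for C3H23 with CPP2 (Pearson 0.365), against 0.476 (Pearson 0.512) over 1688 bins of the rest. It was 0.485 against 0.537 for C3H23 with THX20, 0.372 against 0.467 for C3H23 with OBF4, 0.296 against 0.397 for CPP2 with THX20 and 0.182 against 0.330 for CPP2 with OBF4. OBF4 with THX20 was the exception, with 0.410 in central bins and 0.371 in the rest. Bins are not independent replicates, and the lists share the same DNA source and alignable sequence. The lowest and highest counts lay closer together in the 413 central bins than in the 1688 others, but the quartiles did not for every factor. The rest also pools windows of different density. The part of these features in the correlations was not tested.

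Summed over chromosomes, the windows on either side of the centre differed. The 20 to 40% window exceeded the 60 to 80% window by 1.28 times (1.26 to 1.31) for C3H23, 1.25 times (1.21 to 1.28) for OBF4, 1.26 times (1.24 to 1.29) for THX20 and 1.10 times (1.08 to 1.12) for CPP2.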
